A study of Mus musculus with 2931 samples.

Results

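The 48 genes described here encode the machinery that copies DNA, and they were taken by symbol from the 18072 genes of a count table of mouse lung endothelial cells (EC), which form the inner lining of vessels. All 48 were in the table. RNA was measured in 2931 single cells of distal lung, sorted into plates and sequenced as libraries cut with the Tn5 transposase, with no molecular identifiers. The cells came from 10 mice, 1 female and 1 male in each of 5 groups: embryonic day E18.5, the postnatal days P1, P7 and P21 with normal air, and P7 with hyperoxia, that is raised oxygen. Strain and genotype are not given in the sources used here, nor whether the labels' mouse names each denote a single animal. Every group value is therefore over 2 mice, and a p-value measures only the spread between mouse names. Each cell carries 1 of 10 subtype labels of the authors, which were made from these same cells, so levels by label are a description and not a test.

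DNA replication starts in G1, when the origin recognition complex, Cdc6 and Cdt1 load the ring of Mcm2 to Mcm7 onto origins. In S phase Cdc45 and the 4 GINS proteins (Gins1 to Gins4) turn that ring into an active helicase, polymerase alpha with primase lays primers, and polymerases delta and epsilon extend them, held by the sliding clamp Pcna that replication factor C loads. Ribonucleotide reductase (Rrm1, Rrm2), thymidylate synthase (Tyms), thymidine kinase (Tk1) and the dUTPase (Dut) supply nucleotides, and Fen1 and Lig1 process and seal Okazaki fragments. Many of these genes are known targets of E2F factors, which switch them on as a cell leaves G1, before the genes of mitosis are switched on.

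The cells held 2062278606 reads, between 42095 and 2967985 per cell with a median of 621406. Labels were checked against defining markers after thinning each cell to 50000 reads. Mki67 had a read in 91.5% of proliferative EC, Car4 in 98.2% of Car4+ capillaries and Prox1 in 92.7% of lymphatic EC, and Car4 also had a read in 26.8% and 33.1% of the cells labelled Early and Late Car4-. In the mice with at least 8 cells of a class, over the 5 classes tested below, summed endothelial markers were 1624 to 6140 CPM (the reads of a gene in the summed cells of a class and mouse, scaled to a common library total). Markers of other cell types summed to at most 33.5 CPM for leukocytes, 188 for epithelium, 379 for erythroid cells and 402 for mesenchyme.

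Promoter windows were matched by symbol in the RefSeq table for 40 of the 48 genes (build GRCm38.p6, 250 bases before to 50 after the start of transcription). An E2F-like octamer (TTTGGCGC, TTTCCCGC, TTTCGCGC or TTTGCCGC on either strand) lay in a window of 17 of these 40 genes, or 42.5%, against 4.14% of the 13080 genes of the count table with a window. The shorter CCAAT box lay in 65% of the members and 41.8% of those genes. The 250 upstream bases of 5 members are shown, 5′ to 3′ on the strand of the gene. The genes were picked for levels reported below or for their octamers, and no result below rests on the sequences. Dtl and Lig1 are the members whose levels changed in a test. Rrm2 had among the highest levels in cycling cells relative to capillaries, and Mcm5 and Mcm6 are helicase subunits with several octamers. Octamers are in capitals, and where 2 share bases the capitals run on.
Dtl: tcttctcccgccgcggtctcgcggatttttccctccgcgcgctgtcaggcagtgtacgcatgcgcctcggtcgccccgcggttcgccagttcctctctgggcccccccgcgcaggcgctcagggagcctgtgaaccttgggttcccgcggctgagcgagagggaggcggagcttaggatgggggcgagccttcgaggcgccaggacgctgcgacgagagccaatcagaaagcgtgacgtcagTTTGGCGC
Lig1: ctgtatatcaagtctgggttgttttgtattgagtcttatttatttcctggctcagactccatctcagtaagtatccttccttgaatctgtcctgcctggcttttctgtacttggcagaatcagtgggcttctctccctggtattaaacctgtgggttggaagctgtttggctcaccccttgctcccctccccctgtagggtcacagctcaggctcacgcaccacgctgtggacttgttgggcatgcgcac
Mcm5: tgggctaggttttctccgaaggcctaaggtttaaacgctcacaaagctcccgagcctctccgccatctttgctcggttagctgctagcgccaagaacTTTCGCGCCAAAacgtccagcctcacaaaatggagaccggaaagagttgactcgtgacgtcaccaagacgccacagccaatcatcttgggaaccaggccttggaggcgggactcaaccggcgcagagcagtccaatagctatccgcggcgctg
Mcm6: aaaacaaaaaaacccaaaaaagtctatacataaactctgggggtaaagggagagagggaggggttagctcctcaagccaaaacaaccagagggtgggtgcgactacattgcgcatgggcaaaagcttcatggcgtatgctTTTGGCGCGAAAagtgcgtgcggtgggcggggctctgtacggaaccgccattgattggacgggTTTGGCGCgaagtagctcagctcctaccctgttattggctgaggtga
Rrm2: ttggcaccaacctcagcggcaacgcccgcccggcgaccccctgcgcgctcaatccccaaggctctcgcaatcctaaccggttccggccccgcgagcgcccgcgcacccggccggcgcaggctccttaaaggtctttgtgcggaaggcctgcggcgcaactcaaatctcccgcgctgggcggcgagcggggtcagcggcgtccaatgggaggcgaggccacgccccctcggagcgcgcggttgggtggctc
The Dtl window is chr1:191575545-191575794 on the minus strand, and its octamer TTTGGCGC begins 8 bases before the start. The Lig1 window is chr7:13276925-13277174 on the plus strand and holds none of these octamers. The Mcm5 window is chr8:75109259-75109508 on the plus strand, with TTTCGCGC beginning 153 bases before the start and GCGCCAAA, the reverse complement of TTTGGCGC, beginning 149 bases before it. The Mcm6 window is chr1:128359706-128359955 on the minus strand, with TTTGGCGC beginning 110 and 47 bases before the start and GCGCGAAA beginning 106 bases before it. The Rrm2 window is chr12:24708004-24708253 on the plus strand and holds none. The median ratio of levels in proliferative EC to Car4- capillaries at P7, described below, was 2.86 for the 15 members with an octamer in the window nearest their annotated start and 2.91 for the 25 without.

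The summed level of the 48 genes was taken per class and mouse. In proliferative EC it was 6028 and 6982 CPM in the female and male mouse at E18.5, 10055 and 3312 at P1, 8245 and 6168 at P7, and 6968 and 6761 under hyperoxia. The pair at P1 rests on 13 and 9 cells and spans the whole range of the class. Summed mesenchymal markers in this class were 402 CPM in the P7 male and 361 in the P1 male against at most 28.9 in the other 6 mice, and erythroid markers were 346 CPM in the E18.5 male against at most 22.8. Their part in the levels was not tested. At P21 no cell of the female carried the label, and the 7 such cells of the male had 1486 CPM of replication genes beside 18080 CPM of 22 mitosis genes and 907 CPM of mesenchymal markers. The 10 cells labelled proliferative venous EC, all from the hyperoxia mice, had 9672 and 14271 CPM.

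**Figure D1:**
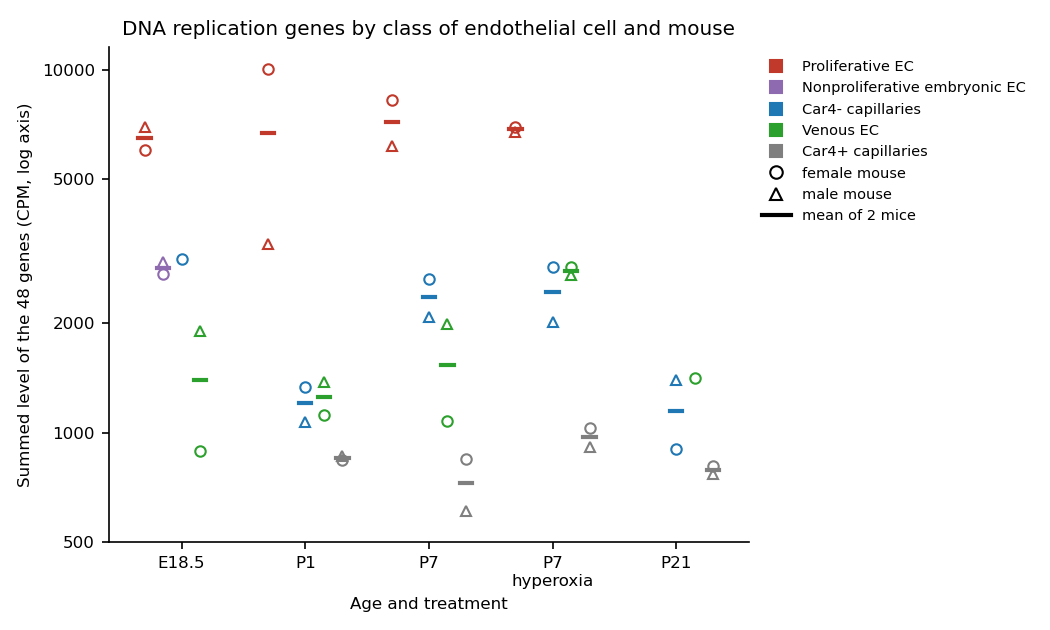
Summed level of the 48 DNA replication genes (CPM, log axis) by age and treatment, with 1 point per mouse in each of 5 classes where it had at least 8 cells and a bar at the mean of 2 mice. Of these 5 classes proliferative EC lie highest in each group where they are drawn, Car4+ capillaries stay between 609 and 1030 CPM, and Car4- capillaries lie at 2658 and 2084 CPM at P7 against 1338 and 1071 at P1.

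The genes were also read in cells outside the cycling labels. Lymphatic EC, of which 40.2% had a read of Mki67, had 4315 CPM in the E18.5 male, 1541 and 4455 in the female and male at P1 and 2544 in the hyperoxia female, from 10 to 26 cells each, so the P1 male was above its own proliferative EC. Nonproliferative embryonic EC had 2731 and 2945 CPM at E18.5. Car4- capillaries (the Early and Late labels together) had 1338 and 1071 CPM at P1, 2658 and 2084 at P7, 2867 and 2011 under hyperoxia, and 901 and 1398 at P21. Car4+ capillaries, the thin cells specialised for gas exchange, stayed between 609 and 1030 CPM in all 8 mice with at least 8 such cells, below every Car4- value except the P21 female. Cells without a proliferative label gave a large share of the replication-gene reads: of the member reads of CD31-sorted cells, cells with a proliferative label gave 65.5% and 49.8% at E18.5, 24.0% and 11.6% at P1, 45.8% and 38.6% at P7, 32.1% and 40.5% under hyperoxia, and 0% and 3.61% at P21. Those cells were 40.5% and 28.4%, 4.13% and 3.88%, 15.6% and 16.5%, 14.7% and 13.8%, and 0% and 2.52% of the CD31-sorted cells in the same order.

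The members differed widely in the ratio of their level in proliferative EC to that in Car4- capillaries. The labels were made from these same cells, so the ratio describes them, and dependence on cycling was not tested. At P7 in normal air 43 of 48 had more CPM in proliferative EC than in Car4- capillaries within both mice. How large this share is among all genes was not tested. The median ratio was 2.88, with a range from 0.906 to 14.9. Across members, the female and male ratios had a Spearman correlation of 0.41, so the order of the genes differed between the mice. The nucleotide suppliers had the highest median of the roles, 5.28 over 5 genes. Rrm2, the regulated subunit of ribonucleotide reductase, had 1040 and 580 CPM in proliferative EC and 75.8 and 43.4 in Car4- capillaries, a ratio of 13.7 in the female and 13.4 in the male. Tk1 gave 17.4 and 11.1 in the same way. Among the helicase genes Cdc45 stood at 230 and 171 CPM against 12.8 and 13.99, a ratio of 17.9 and 12.2. In the Mcm ring the ratio of mean CPM ran from 1.30 for Mcm4 to 3.03 for Mcm5. Mcm2 and Mcm7, at 2.90 and 2.83, lay near the median of the 48. Mcm3 had 254 and 127 CPM against 146 and 111, and Mcm6 302 and 117 against 162 and 88.0. Gins1, Gins2 and Gins3, which act with Cdc45, had ratios of 2.32, 2.09 and 3.01, within the range of the ring. Gins4 had 52.3 and 64.2 CPM in proliferative EC and 69.0 and 59.6 in Car4- capillaries, so its mice overlapped between the classes.

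**Figure D2:**
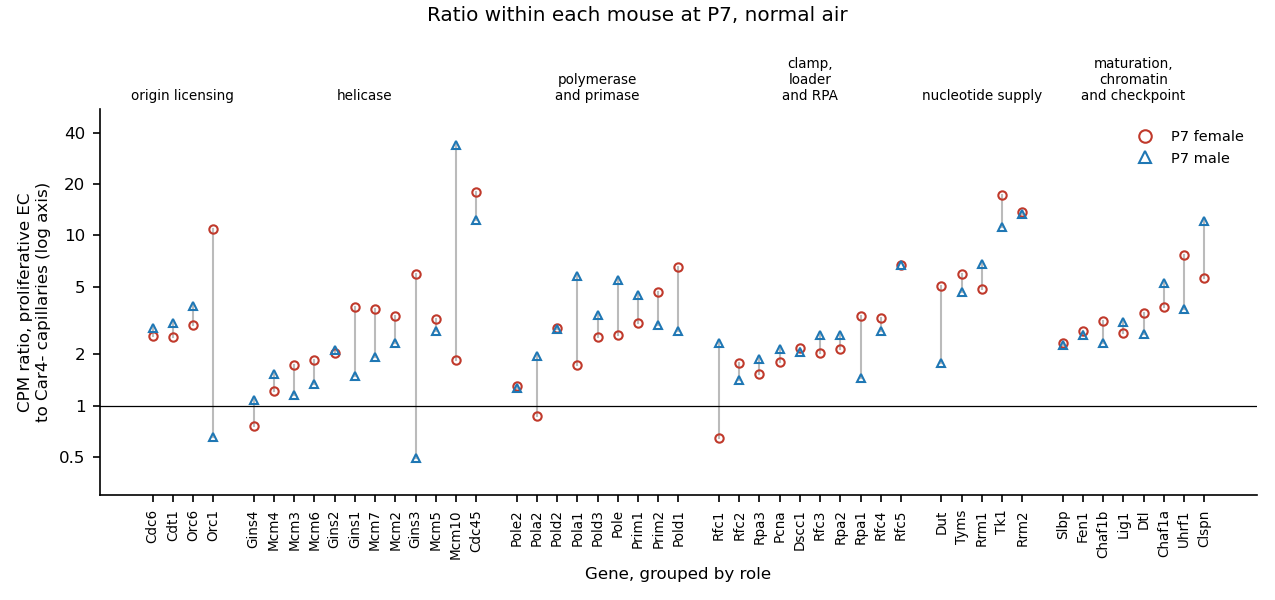
Ratio of CPM in proliferative EC to CPM in Car4- capillaries of the same mouse at P7 in normal air (log axis), 1 circle for the female and 1 triangle for the male per gene, with genes grouped by role. Rrm2, Tk1 and Cdc45 lie above 10 in both mice, Gins4 lies near 1, and Orc1, Mcm10 and Gins3 differ widely between the mice.

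For the other roles, at P7, origin licensing genes ran from 2.65 for Cdc6 to 9.89 for Orc1, the scarce largest subunit of the origin recognition complex, whose ratio was 10.9 in the female but 0.653 in the male. Polymerase and primase genes ran from 1.29 for Pole2 to 4.16 for Pold1, the catalytic subunit of polymerase delta. Clamp, loader and RPA genes ran from 1.16 for Rfc1, the large subunit of the clamp loader, to 6.71 for Rfc5. Genes of maturation, chromatin and checkpoint ran from 2.30 for Slbp, which binds histone mRNA, to 7.60 for Clspn, an adaptor of the replication checkpoint. At E18.5, against nonproliferative embryonic EC, 42 of 48 members had a ratio above 1 in both mice with a median of 2.33, and under hyperoxia 43 of 48 with a median of 2.35. The 48 ratios at E18.5 and at P7 in normal air had a Spearman correlation of 0.667 across genes, which are not independent replicates. The plot of levels by gene shows Pcna, Rfc1, Rfc2 and Slbp present in nearly every class, and Cdc6, Orc1, Mcm10, Chaf1a and Dtl near 0 in many.

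**Figure D3:**
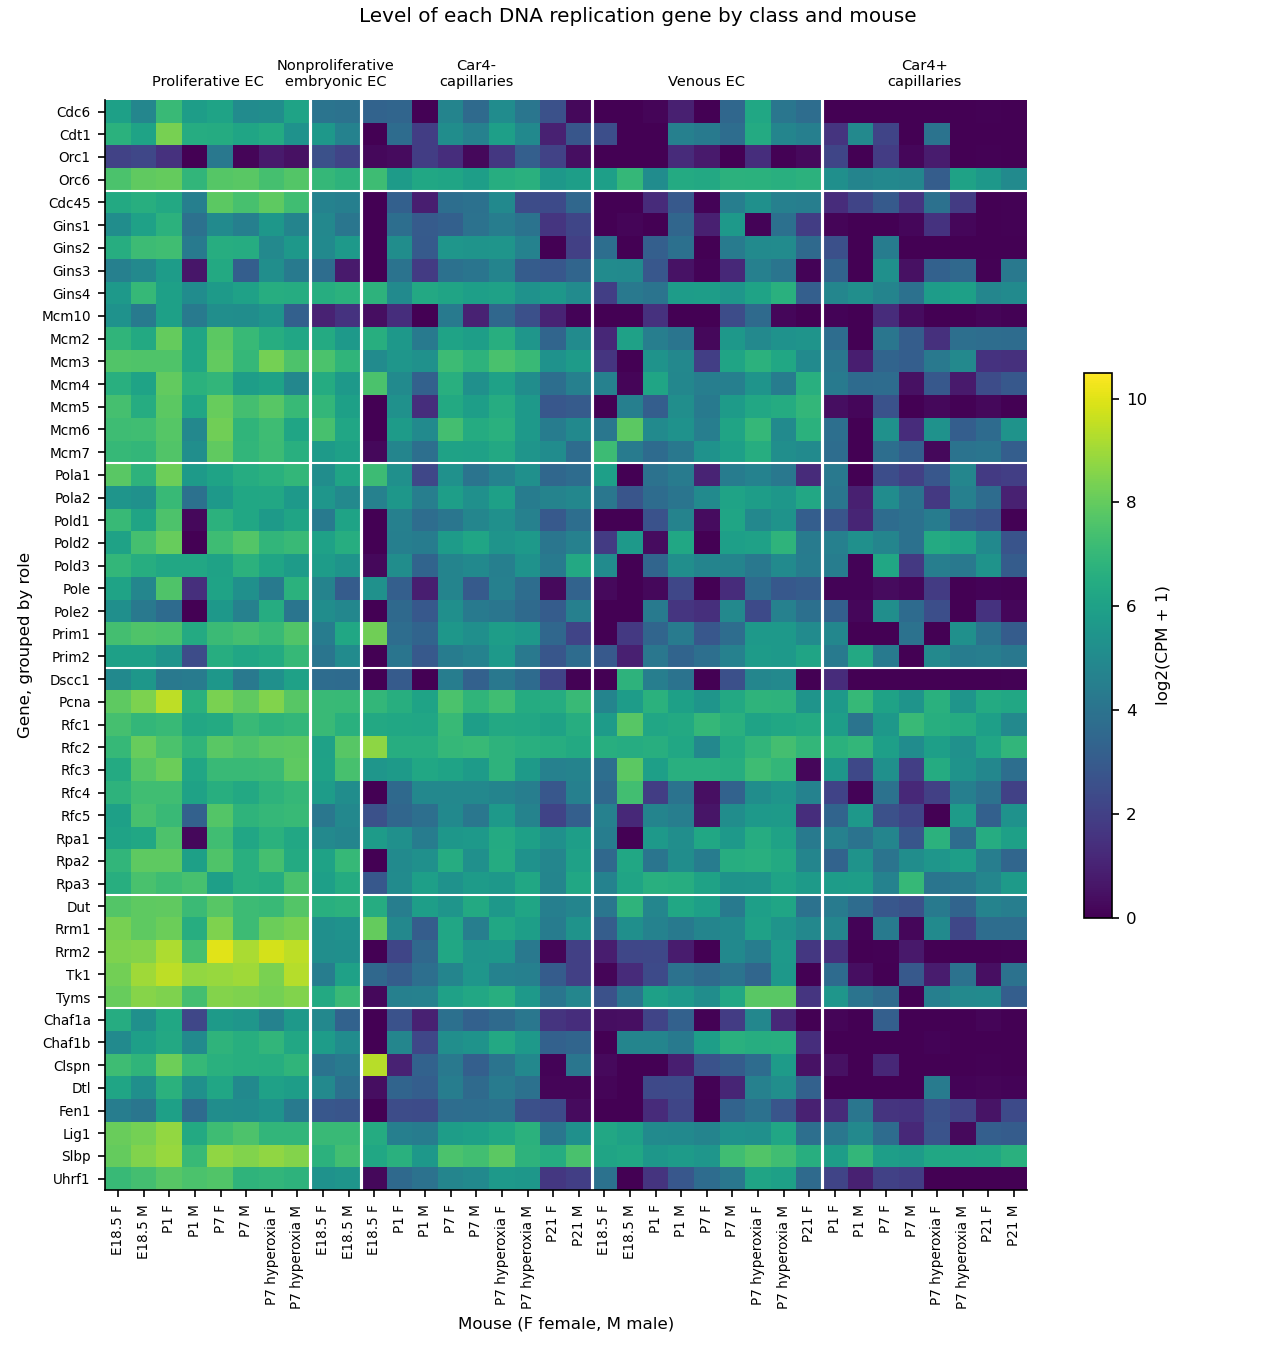
Level of each of the 48 genes, as log2(CPM + 1) by colour, in each mouse and class with at least 8 cells; rows are genes grouped by role and columns are mice grouped by class. Rrm2 and Tk1 are brighter in every proliferative EC mouse than in any mouse of another class tested, while Pcna, Rfc2 and Slbp are visible in all classes.

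Per kilobase of exon, at P7 in normal air, Rrm2 led in proliferative EC with 375 and 209 CPM per kb, followed by Pcna with 138 and 103. In Car4- capillaries Pcna led with 76.9 and 47.8 CPM per kb, and Gins4 came next with 51.2 and 44.2. Dtl and Orc1 were the lowest of the 48 in both classes, with means of 3.75 and 2.53 CPM per kb in proliferative EC and 1.17 and 0.255 in Car4- capillaries. Length here was the union of all annotated exons, 13709 bases for Dtl, and the order depends on it. Without this scaling Dtl had 72.5 and 30.3 CPM in proliferative EC, above Gins1 with 31.6 and 21.9. In Car4+ capillaries Cdc6, Dscc1, Chaf1b and Dtl had 0 reads in both P7 mice.

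The number of members with a read was counted in single cells. After thinning to 50000 reads, which left out 11 shallower cells, a proliferative EC had a read of 20 members at the median, a proliferative venous EC of 37.5, a lymphatic EC of 9.5, a venous EC of 8, a nonproliferative embryonic EC of 6, an Early Car4- cell of 5, a Car4+ cell of 3 and a Late Car4- cell of 2. Among the capillary labels detected genes moved with these counts: the medians after thinning were 2786 genes in Early Car4- cells, 2428 in Car4+ cells and 1476 in Late Car4- cells. Over the other labels the order differed. Their medians were 3769 genes in lymphatic, 3449 in venous, 3070 in proliferative and 2244 in nonproliferative embryonic EC. The part of these differences in the member counts was not tested. Tk1 and Rrm2 each had a read in 69.5% of proliferative EC but in 9.4% and 7.6% of Early Car4- cells, whereas Pcna had one in 68.5% and 42.7%.

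A minority of cells without a cycling label carried as many members as the median proliferative EC. Of 837 Early Car4- cells, 82 (9.80%) had at least 20 members, a limit set after the values were seen, and 25 of the 837 lay within 2 members of it. Their summed member level was 10944 and 7558 CPM at P7 and 10946 and 9854 under hyperoxia. All proliferative EC, which were not chosen by member count, had 8245 and 6168, and 6968 and 6761. The sum was 1847 and 1123, and 1444 and 1091, in the remaining Early Car4- cells of the same mice. The summed level of the 22 mitosis genes in these cells was 306 and 325 CPM at P7, against 9788 and 8247 in proliferative EC. The median was 12 mitosis reads of 50000, and 19 of the 82 cells had none. Among genes outside the 48, the E-type cyclins Ccne1 and Ccne2 summed to 201 and 98.4 CPM at P7 in these cells against 4.67 and 7.17 in the others. E2f1 stood at 146 and 104 against 21.7 and 6.30. The cells with at least 20 members also had more genes detected after thinning. Their medians were 3344.5 and 4014 at P7 against 2225 and 3187 in the remaining Early Car4- cells. Under hyperoxia they were 3326.5 and 3071 against 3124 and 2286. The part of that difference was not tested. These values describe cells chosen by their member counts and are no test.

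**Figure D4:**
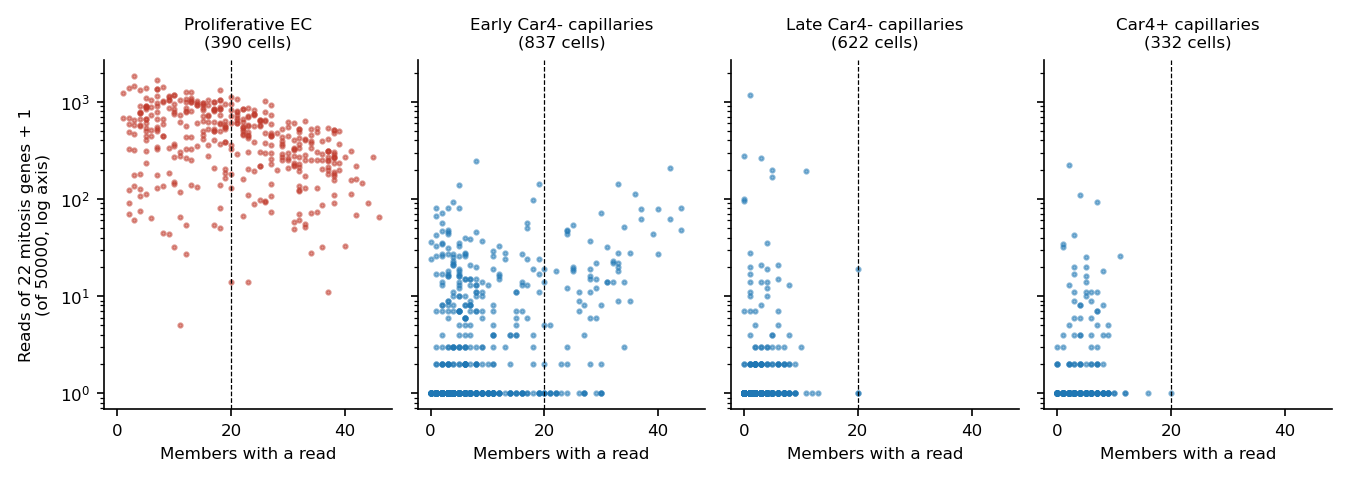
Each point is 1 cell after thinning to 50000 reads: members with a read (of 48) on the horizontal axis and reads of 22 mitosis genes plus 1 on a log vertical axis, for 4 labels; the dashed line is at 20 members. Proliferative EC fill the upper part of the plot on both sides of the line, Early Car4- capillaries have 82 of 837 cells at or past it with few mitosis reads, and Late Car4- and Car4+ capillaries have 3 of 622 and 1 of 332.

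These cells were unevenly spread over labels and mice. The share of Early Car4- cells with at least 20 members was 8.18% and 1.67% at P1, 8.64% and 15.3% at P7, and 15.9% and 9.52% under hyperoxia, so the groups overlapped at P7 with and without hyperoxia. The 95% Clopper-Pearson intervals for counting error within a mouse were 4.81 to 14.1 and 9.18 to 23.4 at P7. Lymphatic EC held 24 such cells of 82, of which 11 of 13 came from the P1 male. In nonproliferative embryonic EC they were 16 of 132 and 18 of 168 cells at E18.5. They gave 34.7% and 53.8% of the member reads of Car4- capillaries at P7, 37.6% and 12.3% at P1, 57.0% and 51.4% under hyperoxia, and 1.05% and 3.10% at P21.

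Among proliferative EC, cells rich in replication genes tended to be poor in mitosis genes. The Spearman correlation of summed member reads with mitosis reads across cells was below 0 in each of the 8 mice with at least 8 such cells, from -0.0347 in the P7 male to -0.559 in the hyperoxia male. Cells of a mouse are not independent replicates, and correlations of the member reads with depth ran from -0.233 to 0.242. By gene, Pcna (mean -0.498 over 6 mice), Lig1 (-0.408) and Cdt1 (-0.394), the licensing factor destroyed once S phase starts, lay farthest below 0, while the means of Rrm1 (0.0271) and Rrm2 (-0.0549) covered mice of both signs, from -0.449 to 0.312 and from -0.251 to 0.287. The same Lig1 and Pcna followed the sum of the other members most closely, at 0.702 and 0.695.

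Around birth nearly all members had lower fitted levels at P1 than at E18.5 in cells without a proliferative label, and 1 passed the test. Nonproliferative embryonic EC at E18.5 were set against Car4- capillaries at P1. These are the main classes without that label at those ages, so label and age cannot be told apart here. Some of these cells may cycle: Mki67 had a read in 14.1% of nonproliferative embryonic EC and 3.70% of Early Car4- cells over all ages. The 22 mitosis genes summed to 336 and 425 CPM at E18.5 against 58.7 and 106 at P1. The part of such cells in the difference was not tested. Lig1, the ligase that seals Okazaki fragments, had 139 and 137 CPM at E18.5 and 22.1 and 20.01 at P1. Both embryonic mice were above both P1 mice, and Lig1 was higher at E18.5 by 2.63 on the log2 scale (SE 0.50, adjusted p = 0.0290, edgeR quasi-likelihood test). Lig1 was the only member called, that is at an adjusted p under 0.05 over all genes tested, where 0.494% of 14967 genes were called. Leaving out either E18.5 mouse or the P1 male left 0 members called, and leaving out the P1 female left Mcm5 called in place of Lig1. Of the 48 members 46 had a higher fitted level at E18.5, with a median of 1.27 on the log2 scale against -0.02 over all genes, and in 36 both E18.5 mice were above both P1 mice, as in 18.6% of all genes tested. Cdc45, part of the active helicase, had 24.2 and 21.8 CPM against 8.19 and 0.847. Mcm5, a subunit of its ring, had 124 and 61.0 against 38.2 and 1.57. With DESeq2 5 members were called, all higher at E18.5, and the share of all genes that it called is not given. The CD31-sorted cells of the females shared a run, here the DC code in the cell names. Between them, 39 of 48 members were higher at E18.5 with a median of 0.97. Of the 61 other genes of DNA replication and its control, 49 were higher at E18.5 and 0 were called. Epithelial markers summed to 188 and 63.2 CPM at E18.5 against 37.3 and 57.01 at P1, and their part was not tested.

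In Car4- capillaries the members stood higher at P7 than at P1 and lower again at P21. Between P1 and P7, 44 of 48 had a higher fitted level at P7, with a median of 1.12 on the log2 scale against -0.04 over all genes. In 29 of the 48 both P7 mice were above both P1 mice, as in 21.1% of the 14660 genes tested. None was called, as 0% of all genes were, and 11 had an unadjusted p under 0.05, all higher at P7. DESeq2 called 2, Mcm3 and Prim1, and its share of all genes is not given. Rrm2 had 75.8 and 43.4 CPM at P7 and 3.55 and 10.7 at P1 (log2 2.88, SE 1.16, adjusted p = 0.407, edgeR). Cdt1 had 34.3 and 23.7 against 12.1 and 2.76, and Mcm5 83.0 and 58.9 against 38.2 and 1.57. A read of Rrm2 was found in 10.7% and 12.9% of the cells at P7 and in 7.18% and 4.92% at P1. In summed reads, fewer cells that express a gene and less RNA per cell cannot be told apart. Among CD31-sorted cells no run held both P1 and P7, so run and age cannot be told apart among them. In cells with fewer than 20 members the summed level was 1896 and 1113 CPM at P7 and 924 and 954 at P1. Since cells were left out by their member count, part of the smaller difference follows from that choice. Of the 61 pathway genes 41 were higher at P7, and 0 were called.

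Between P7 and P21, 44 of 48 members had a lower fitted level at P21, with a median of -1.28 on the log2 scale against 0.06 over all genes. In 34 of the 48 both P21 mice were below both P7 mice, as in 21.5% of all genes tested. Dtl, the substrate receptor of the ubiquitin ligase that removes Cdt1 in S phase, was the only member called, where 0.266% of genes were. It had 20.6 and 11.4 CPM at P7 and 0.0923 and 0.105 at P21, with no overlap, and fell by 7.21 on the log2 scale (SE 1.15, adjusted p = 0.0296, edgeR). A read of Dtl was found in 10.2% and 6.90% of the P7 cells and in 4.04% and 4.10% of the P21 cells, where it rested on 18 and 13 reads. Leaving out either P7 mouse or the P21 female left 0 members called, and leaving out the P21 male left Gins2 called in place of Dtl. Uhrf1, which carries DNA methylation through replication, missed the threshold with 26.5 and 30.2 CPM at P7 and 2.28 and 2.85 at P21 (log2 -3.34, adjusted p = 0.0617, edgeR). Rrm2 stood at 0.113 and 2.95 CPM at P21 (log2 -5.09, adjusted p = 0.165, edgeR). Outside the 48, E2f1, a factor that binds E2F sites, was called among the 61 pathway genes: it had 30 and 21.3 CPM at P7 and 0.0410 and 0.0324 at P21 (log2 -9.30, adjusted p = 0.0118, edgeR). With DESeq2, 11 members were called, all lower at P21, among them Dtl, Uhrf1, Rrm2, Mcm5 and Mcm6. The share of all genes that DESeq2 called is not given, so this count is not a result about the members. Epithelial markers summed to 77.03 and 169 CPM at P21 against 30.9 and 52.7 at P7, and their part was not tested.

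With cells of at least 20 members left out, Car4- capillaries had 1896 and 1113 CPM at P7 and 893 and 1364 at P21, values that are shaped by leaving cells out on the members themselves. P21 Car4- cells nearly all carried the Late label (268 and 265 cells), and P7 cells mostly the Early label, so label and age cannot be told apart. The 44 Late Car4- cells of the P7 female had 2200 CPM, of which Rrm2 alone gave 198 CPM, against 905 and 1411 in the Late cells of P21. Dtl, however, had 0.0429 CPM in these Late P7 cells, 23.6 in the Early cells of the same mouse, and 0.0937 and 0.107 in the Late cells of P21. Uhrf1 likewise had 0.300 CPM in the Late and 30.3 in the Early cells of that mouse. The Late P7 cells' median was 1.5 members per cell. After thinning they had a median of 770.5 detected genes, against 2339.5 in the Early cells of that mouse. In the Late cells of P21 the medians were 2072 and 1139. The part of these differences in the levels of Dtl and Uhrf1 was not tested. Between the CD31-sorted cells of the males, 184 at P21 and 111 at P7 from 1 run, 38 of 48 members were lower at P21 with a median of -1.13.

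Hyperoxia at P7 was set against normal air in 4 classes, and edgeR called 0 members in each. In proliferative EC and Car4- capillaries 0 had an unadjusted p under 0.05 and DESeq2 called 0. In Car4+ capillaries 2 had an unadjusted p under 0.05 and DESeq2 called 1, Gins2, at a log2 of -23.6. Gins2 was near the floor there: in air it had 4.95 CPM per kb in the female and 0 in the male. After thinning, 4 of 332 Car4+ cells of all groups had a read of it. In proliferative EC 21 members were higher and 27 lower with a median of -0.07 (0.22 without the P7 air female), where 0% of the 13102 genes tested were called. Gins2, of the GINS complex, had 30.05 and 46.8 CPM against 92.8 and 90.4 in air, although 67.3% of its exon bases overlap those of Gse1 on the other strand and its reads are uncertain without strand. Mcm2, of the helicase ring, had 92.7 and 73.4 against 229 and 135. Gins4 had 92.0 and 88.4 against 52.3 and 64.2. Over all genes tested in this class, both hyperoxia mice were above both air mice in 16.6% and below in 16.4%. For the members these shares were 8.33% and 12.5%. In Car4- capillaries 27 were higher and 21 lower with a median of 0.08, which was -0.34 without the hyperoxia female and -0.15 without the P7 air male, where 0.0136% of genes were called. Uhrf1 had 50.8 and 46.0 CPM against 26.5 and 30.2, and Pole2, a subunit of polymerase epsilon, 16.4 and 11.5 against 36.5 and 18.3. Here the shares above and below were 18.1% and 15.6% over all genes tested, and 16.7% and 10.4% for the members. In Car4+ capillaries 40 of the 48 passed the filter on low counts, 22 higher and 18 lower with a median of 0.15 (-0.41 without the hyperoxia female and 1.11 without the P7 air female), where 0% of genes were called. The same mice stood apart in p53 targets: the 13 such genes summed to 3793 and 5212 CPM under hyperoxia and 634 and 613 in air in Car4- capillaries, with 12 of 13 higher, 9 at an unadjusted p under 0.05 and 0 called. Their part in the member levels was not tested. Cdkn1a, the p53 target that blocks the kinases of S phase, had 1630 and 3041 CPM in the Early Car4- cells with at least 20 members under hyperoxia and 2470 and 3454 in those with fewer. In air it had 191 and 264, and 217 and 126. The difference between the hyperoxia effects in proliferative EC and in Car4- capillaries was tested for each member as an interaction. None was called, as 0% of 13781 genes were, 3 had an unadjusted p under 0.05, DESeq2 called 0, and the median difference was -0.16.

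In venous EC most members had higher fitted levels under hyperoxia, but none passed the test. The sum was 2860 and 2721 CPM against 1077 and 1997 in air, and 44 of 48 members were higher with a median of 1.09 on the log2 scale against 0.01 over all genes. In 24 of the 48 both hyperoxia mice were above both air mice, as in 17.6% of the 12326 genes tested. None was called, as 0% of all genes were, and the smallest adjusted p of a member was 1 (edgeR), with 3 members at an unadjusted p under 0.05 and 0 called by DESeq2. Dtl had 23.7 and 35.6 CPM under hyperoxia and 0.0386 and 1.12 in air, and Rfc4 34.5 and 43.8 against 0.347 and 8.75. These sums rest on 23 and 30 cells against 21 and 23. In the hyperoxia mice 4 and 6 cells with at least 20 members gave 70.0% and 59.3% of the member reads, and in air 0 cells of the female and 5 of the male gave 0% and 42.4%. Mesenchymal markers summed to 113 and 115 CPM under hyperoxia against 0.810 and 50.8 in air, and leukocyte markers to 10.3 and 22.8 against 0 and 0.745. Their part in the member levels was not tested. Without the P7 air male the median was 2.29. Between the CD31-sorted cells of the males, which shared a run, 31 of 48 members were higher with a median of 0.45.

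**Figure D5:**
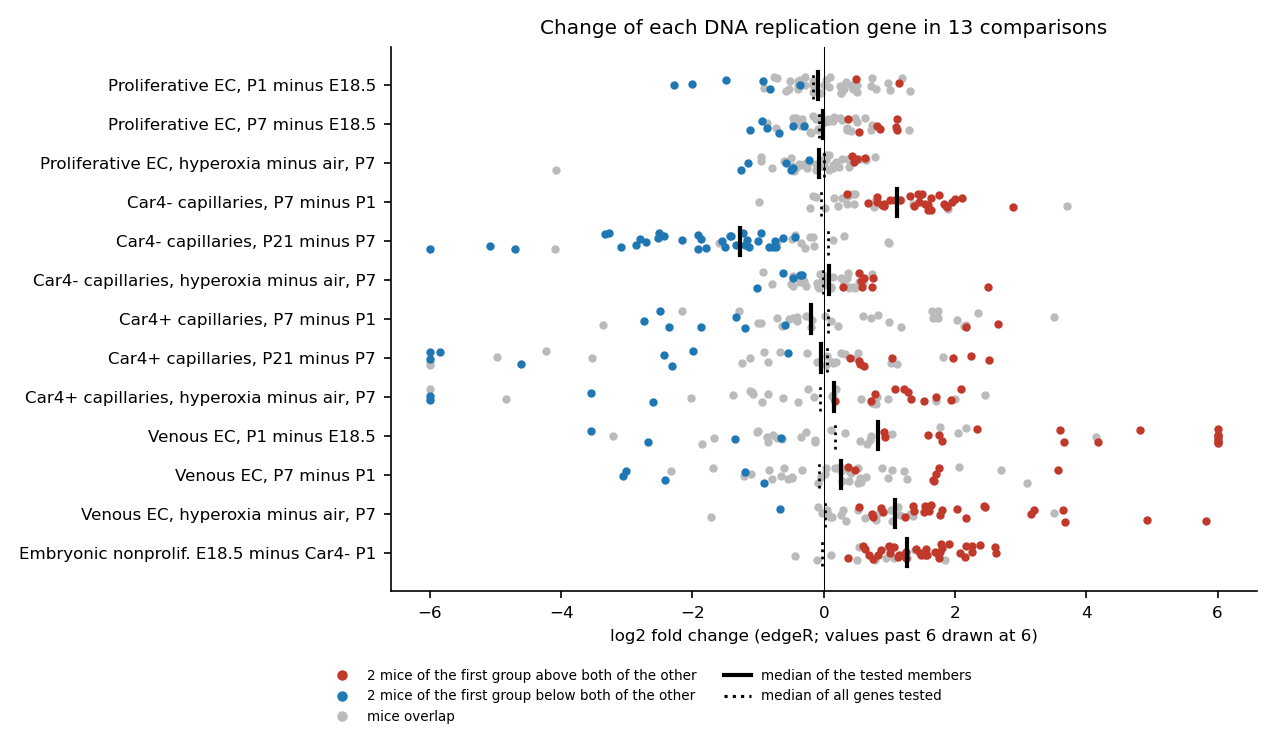
Fitted log2 fold change of each tested member in 13 comparisons (points), with the median of the members (solid bar) and of all genes tested (dotted bar); red and blue points are members whose 2 mice of the first group lie above or below both mice of the other, and values past 6 are drawn at 6. The members shift to one side in Car4- capillaries between P1 and P7 and between P7 and P21, in venous EC under hyperoxia and around birth, with medians of 1.12, -1.28, 1.09 and 1.27, and lie on both sides of 0 in proliferative EC.

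Within proliferative EC the members lay on both sides of no difference between ages. Of the 48, 24 were higher and 24 lower at P7 than at E18.5, with a median of -0.01 on the log2 scale (-0.33 to 0.29 over the alternatives, and 0.07 with DESeq2's scaling), and 0 were called by edgeR or DESeq2, where edgeR called 0.0458% of 13102 genes. No member had an unadjusted p under 0.05. Rrm2 had 1040 and 580 CPM at P7 and 350 and 369 at E18.5 (log2 1.12, SE 0.54, adjusted p = 0.931, edgeR), and Cdc45 230 and 171 against 81.6 and 95.6. Lig1 had 151 and 188 CPM at P7 and 271 and 318 at E18.5 (log2 -0.86, adjusted p = 0.979, edgeR). The mice of the 2 ages did not overlap for these genes. Over all genes tested, both P7 mice were above both E18.5 mice in 19.1% and below in 21.2%. For the 48 members these shares were 14.6% and 12.5%. Between E18.5 and P1, 23 were higher and 25 lower with a median of -0.08 (0.04 with DESeq2's scaling and 0.49 without the P1 male), and 0 were called by edgeR or DESeq2 or had an unadjusted p under 0.05, as edgeR called 0% of genes. Between the CD31-sorted cells of the females, which shared a run, 38 of 48 were higher at P1 with a median of 0.63. Without the P1 female, P1 rested on 9 cells of the male. The fitted log2 difference of Pold2, an accessory subunit of polymerase delta, was then -15.3.

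In the remaining comparisons edgeR called no member. Car4+ capillaries, with 40 of 48 members tested, had medians of -0.19 between P1 and P7 and -0.04 between P7 and P21, where 0% and 0.00814% of the 12284 genes were called. These medians rest on single mice: the former was 2.47 without the P1 female and -0.92 without the P7 female, and the latter 0.51 without the P7 female and -0.63 without the P21 male. The members at an unadjusted p under 0.05 numbered 0 and 2, and DESeq2 called 0 and 1, the latter the scarce Gins2 at a log2 of -25.3. Venous EC had 30 members higher and 18 lower at P1 than at E18.5, with a median of 0.82 against 0.18 over all genes, which was -0.00 without the P1 male and 2.23 without the E18.5 female. None was called and 7 had an unadjusted p under 0.05, where edgeR called 0.0162% of 12326 genes. DESeq2 called 4 members, and its share of all genes is not given. In 17 of the 48 both P1 mice were above both E18.5 mice, as in 27.4% of all genes. Mcm3 had 40.8 and 28.7 CPM at P1 and 2.05 and 0 at E18.5, from 11 cells in each E18.5 mouse. With 1 E18.5 mouse left, fitted differences were large. Mcm3 stood at 12.5 on the log2 scale without the E18.5 female. Without the E18.5 male, Mcm5 stood at 11.97 and Mcm7 at -3.50. Between P1 and P7, 29 were higher and 19 lower at P7 in venous EC with a median of 0.27 (-0.08 without the P1 female and -0.76 without the P7 male). No member was called by edgeR or DESeq2 or had an unadjusted p under 0.05, and edgeR called 0% of genes.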

How the data were processed

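The authors deposited 1 table of raw read counts per gene and cell, with 0 rows for ribosomal-protein or mitochondrial symbols. Per the submitters' processing notes, STAR 2.5.2b and HTSeq 0.10 were used, with a build named GRCh38, a human name for mouse cells. Gene lengths and overlaps come from GENCODE M21, matched by symbol for 18017 of 18072 genes. The authors' labels were used for subtype, mouse and sorting gate.

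Counts were summed per class and mouse with at least 8 cells and tested with edgeR 4.0.16 (quasi-likelihood F-test, TMM scaling, filterByExpr, Benjamini-Hochberg adjustment over all genes tested, threshold 0.05) in R 4.3.3, with all groups of a class in 1 model. DESeq2 1.42.0 was an alternative. Members that it called are counted without its share of all genes, so these counts only show dependence on the tool. The 95% Clopper-Pearson intervals, where given, are for numbers of cells. They cover counting error within a mouse and leave out the spread between mice. Named in each comparison were called members and, from those whose mice did not overlap and whose higher group averaged 20 CPM or more, up to 3 per direction by fitted difference; by label, the extremes of the cycling ratio in each role. Other members named for their levels were chosen after their values were seen. The members and lists were chosen with earlier results of these data known. On simulated counts with 200 genes changed by 3 on the log2 scale, the test called 18.5% of them in proliferative EC and 48% in Car4- capillaries for hyperoxia against air. Exons of Fen1, Gins2 and Chaf1a overlap another gene by 78.8%, 67.3% and 52.5%, so their counts are uncertain without strand.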

Additional observations from a re-analysis of the deposited data

How the results depend on the processing

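The number of members called moved under these alternatives. DESeq2 called 2 in Car4- capillaries between P1 and P7, 11 between P7 and P21, 1 in Car4+ capillaries between P7 and P21 and 1 under hyperoxia, 4 in venous EC between E18.5 and P1, and 5 around birth. With no filter beyond 1 read, edgeR called 2 in Car4- capillaries between P7 and P21 and 1 in venous EC between E18.5 and P1. Leaving out 1 mouse at a time gave 0 to 8 calls in proliferative EC between E18.5 and P1, 0 to 1 in Car4- capillaries between P1 and P7 (Mcm5, without the P1 female), 0 to 1 between P7 and P21, 0 to 4 in venous EC between E18.5 and P1, and 0 to 1 around birth. A lone mouse was then assumed to vary like the other groups. Over all alternatives and comparisons, the number of all genes called moved in 67 runs and stayed in 60. Shares of all genes are not given beside these counts of members. As the mean over cells of each cell's CPM, the summed level was 832 in Car4+ capillaries at P1, 851 at P21 and 2606 in venous EC under hyperoxia. Without thinning the median members per cell were 10 in arterial EC II, 5 in Car4+ capillaries, 3 in Late Car4- capillaries, 8 in nonproliferative embryonic EC, 41 in proliferative venous EC and 11 in venous EC. The members' median log2 difference kept its sign under every alternative run in Car4- capillaries between P1 and P7 (0.83 to 1.32) and between P7 and P21 (-1.85 to -1.03), around birth (1.21 to 1.58) and in venous EC under hyperoxia (0.74 to 2.29). It took both signs in the other 9 comparisons: -0.94 to 0.49, -0.33 to 0.29 and -0.27 to 0.22 in proliferative EC for P1 and P7 against E18.5 and for hyperoxia, -0.34 to 0.38 in Car4- capillaries under hyperoxia, -0.92 to 2.47, -0.63 to 0.51 and -0.41 to 1.11 in Car4+ capillaries for P7 against P1, P21 against P7 and hyperoxia, and -0.00 to 2.23 and -0.76 to 0.73 in venous EC for P1 against E18.5 and P7 against P1. No member called by edgeR with all mice changed direction. With the sex of the mouse as a replicate block, 1 member was called in Car4- capillaries between P7 and P21 (Dtl, adjusted p = 0.0439, edgeR) and 1 around birth (Lig1, adjusted p = 0.0248, edgeR), and 0 in the other comparisons it was run for. It was not run for the interaction, where the mouse is already a term. Mice of 1 sex share a label and, for some groups, a run. Correlations of their deviations between groups ran from -0.0814 to 0.228 and were not over 0.1 for every pair, so they were not taken as pairs. With 2 mice a group, small changes of scarce genes were not detectable.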
